A study of Mus musculus with 4 samples.

Results

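Lambda B cells with at least 2 UMIs of Mcc were found in 4 libraries of mouse liver biopsies and numbered 594 of 26825 kept cells. A B cell was a barcode with at least 500 unique molecular identifiers (UMIs), at least 300 detected genes, at most 10% mitochondrial UMIs, a UMI of Cd79a, no UMI of Cd3e or Cd3d and fewer than 10 UMIs of Prg4. It was a lambda B cell where Iglc1, Iglc2 and Iglc3 together held more UMIs than Igkc. Mcc, the light chain balance, Cd79a, Cd3e, Cd3d and Prg4 thus chose the cells, and their values are given as a description. The cells have been labelled an expanded clone, but counts per gene hold V gene names and no junction sequences, so whether the cells descend from 1 founder cannot be read from them and they are named here by the rule.

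Male C57BL/6J mice received the FPC diet, which holds fructose, palmitate, trans fat and added cholesterol, and their livers were sampled by fine-needle aspiration (FNA). The diet held 0.05% cholesterol throughout in P-LC24 (week 24) and I-LC32 (week 32), 1.25% until week 24 in P-HC24 (week 24), and 1.25% until week 24 followed by 0.05% for 8 weeks in I-HC32 (week 32). Non-parenchymal cells of 3 mice, the same mice at both times, were pooled into 1 library per condition, so the cells of single mice cannot be told apart and no spread between mice can be given. Weeks count time on the diet. Cells of 1 library are not replicates, and no test was made. Parentheses hold 95% intervals, by the exact Clopper-Pearson method for a share and the exact conditional binomial method for a ratio of levels, which include counting error and no other. Where no cell had a UMI, the share that 3 counts would give is stated as the limit, and it is lower than the Clopper-Pearson bound. A level is the UMIs of a gene summed over the cells of a class, as CPM, counts scaled to the same total of UMIs in each class.

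A B cell joins V genes at its heavy and light chain loci and passes the joins to its daughter cells. Most B cells make a light chain of either kappa or lambda, and lambda B cells often carry joined kappa V genes as well. V genes are shared by unrelated cells too, so cells that share V genes may or may not share an ancestor. In mice most B cells carry kappa chains. B-1 cells, an innate-like type of the body cavities with a restricted set of V genes, express Cd5, Ctla4, Zbtb32 and Bhlhe41 and mostly IgM, whereas follicular B cells express Fcer2a, Ighd and Ccr7. Mcc encodes a cytoplasmic protein that was named for its mutation in colorectal cancers.

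The V genes with the most UMIs in the Mcc-positive lambda B cells of I-LC32 are shown to place the results in sequence. These are reference V exons of C57BL/6J in GRCm39, not reads of the cells. Each is shown in frame up to the end of the exon and cut to at most 300 bases, so first bases of an exon can be missing. Capitals mark the stretch from the last in-frame cysteine codon to the end of the exon, where the V segment meets its junction. All 4 lie on the minus strand. The coordinates are those of the bases shown. Ighv8-5 (ENSMUSG00000102364) is a heavy chain V gene, at chr12:115031180-115031477. Igkv6-29 (ENSMUSG00000076578) and Igkv8-28 (ENSMUSG00000094356) are kappa V genes, at chr6:70115446-70115741 and chr6:70120577-70120875. Iglv1 (ENSMUSG00000076934) is a lambda V gene, at chr16:18903767-18904066.
Ighv8-5: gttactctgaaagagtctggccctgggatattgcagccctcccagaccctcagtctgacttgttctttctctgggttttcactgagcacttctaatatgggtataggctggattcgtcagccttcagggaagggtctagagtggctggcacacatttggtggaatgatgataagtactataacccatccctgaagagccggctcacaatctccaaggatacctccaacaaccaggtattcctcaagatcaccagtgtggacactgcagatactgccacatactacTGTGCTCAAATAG
Igkv6-29: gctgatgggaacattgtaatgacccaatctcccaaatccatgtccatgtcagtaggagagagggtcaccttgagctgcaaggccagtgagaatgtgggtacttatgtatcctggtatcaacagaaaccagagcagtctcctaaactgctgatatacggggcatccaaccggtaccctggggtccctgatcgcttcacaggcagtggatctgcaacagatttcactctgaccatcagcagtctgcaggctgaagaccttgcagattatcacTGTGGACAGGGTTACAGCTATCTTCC
Igkv8-28: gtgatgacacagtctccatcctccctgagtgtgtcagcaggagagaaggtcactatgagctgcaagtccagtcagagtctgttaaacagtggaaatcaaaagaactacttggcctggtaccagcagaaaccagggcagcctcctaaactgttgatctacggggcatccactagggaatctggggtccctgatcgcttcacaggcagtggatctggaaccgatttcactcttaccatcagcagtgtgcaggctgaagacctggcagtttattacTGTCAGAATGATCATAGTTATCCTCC
Iglv1: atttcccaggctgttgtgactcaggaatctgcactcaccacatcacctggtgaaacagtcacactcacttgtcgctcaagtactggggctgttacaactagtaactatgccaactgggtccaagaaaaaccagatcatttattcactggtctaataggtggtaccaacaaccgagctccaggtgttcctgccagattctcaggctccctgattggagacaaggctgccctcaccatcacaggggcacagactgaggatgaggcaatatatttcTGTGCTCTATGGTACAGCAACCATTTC
Igkv6-29 and Igkv8-28 are next to each other, with starts 5131 bases apart and no annotated kappa V gene between them. Their transcripts were 78.2% identical. Reads of close copies can be split or lost in counting. Ighv8-5 was 96.1% identical to Ighv8-8, Igkv6-29 was 98.7% identical to Igkv6-20, Igkv8-28 was 97.6% identical to Igkv8-19 and Iglv1 was 97.0% identical to Iglv2. In the Mcc-positive lambda B cells of I-LC32 these copies held 1, 5, 1 and 4 UMIs, against 161, 445, 280 and 406 of the 4 genes shown.

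The Mcc-positive lambda B cells were unevenly spread over the libraries. I-LC32 held 552 of them (92.9%), P-HC24 21, I-HC32 14 and P-LC24 7. They were 11.3% (10.5–12.3) of the B cells in I-LC32, against 0.214% (0.0861–0.440) in P-LC24, 0.457% (0.283–0.698) in P-HC24 and 0.286% (0.157–0.480) in I-HC32. Of the lambda B cells they were 58.1% (54.9–61.3) in I-LC32, 2.65% (1.07–5.39) in P-LC24, 6.27% (3.92–9.42) in P-HC24 and 3.70% (2.04–6.14) in I-HC32. Lambda B cells as a whole were 19.5% of the B cells in I-LC32 and between 7.29% and 8.07% in the others, and lambda B cells without Mcc were between 6.62% and 7.55% in all 4. The lambda share of I-LC32 was thus higher than in the other libraries by about the share of its Mcc-positive cells. P-LC24 was taken from the same mice 8 weeks earlier on the same diet, and how far the share differed between the 3 mice could not be seen. Barcodes found in more than 1 library numbered 62 to 84 per library and included 5 of the 552 cells. Without them the share of lambda B cells in I-LC32 was 58.2%.

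**Figure D1:**
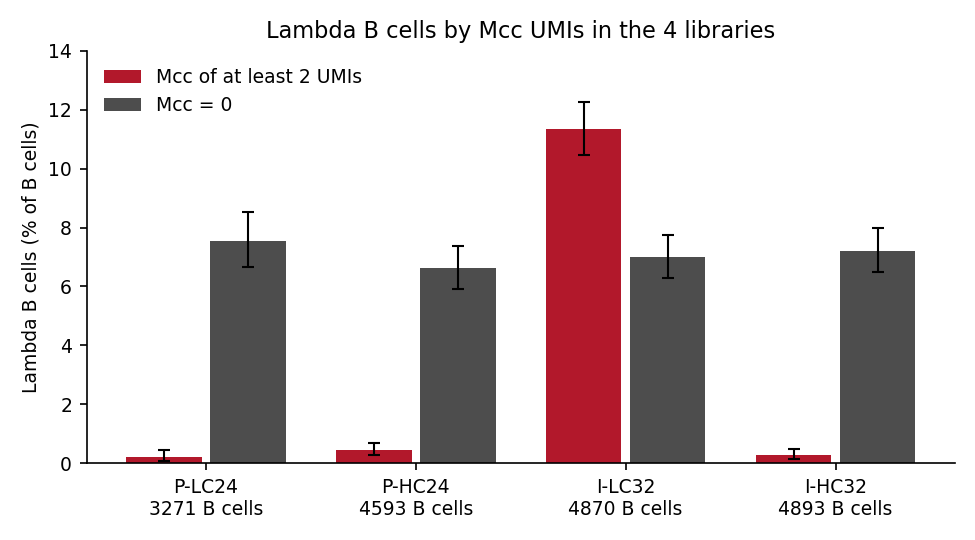
Share of B cells (%) that were lambda B cells with at least 2 UMIs of Mcc or with none, in each of the 4 libraries, with 95% Clopper-Pearson intervals as bars. The Mcc-positive cells were 11.3% of the B cells in I-LC32 and at most 0.457% in the others, while the Mcc-negative lambda B cells lay between 6.62% and 7.55%.

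In I-LC32 Mcc had a median of 7 UMIs and at most 46 UMIs per cell in these cells, and its level was 609 CPM. In T cells (a UMI of Cd3e or Cd3d and none of Cd79a), which should lack the B cell genes, it was 0.956 CPM. At the edge of the rule, 57 lambda B cells had 1 UMI of Mcc, 65 had 2 and 50 had 3. The Mcc-positive cells were deep, with a median of 13208 UMIs, against 12299 in lambda B cells with 1 UMI of Mcc, 7438 in those with none and 6880 in T cells. A minimum of 2 UMIs favours deep cells. Shares of cells are therefore also given at equal depth for Ighv8-5, Igkv6-29 and a few other genes, and all other shares of cells are at the depth of each class. A930012L18Rik, a noncoding RNA gene that overlaps Mcc, had 41 UMIs in the Mcc-positive and 2 in the Mcc-negative lambda B cells, and reads of overlapping genes may be split between them. The nearby coding genes did not follow Mcc, with log2 ratios of 0.07 (−0.28 to 0.44) for Dcp2, a decapping enzyme, and −0.72 (−1.13 to −0.30) for Ythdc2, an RNA helicase.

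Ighv8-5 led the heavy chains of the Mcc-positive lambda B cells of I-LC32. It had 161 of their 192 Ighv UMIs (83.9%, 77.9–88.8), spread over 21 Ighv genes, and no other gene had more than 4 UMIs. In the Mcc-negative lambda B cells of the same library it had 12 of 86 Ighv UMIs. In lambda B cells with 1 UMI of Mcc, which the rule left out, it had 17 of 17. The libraries read the 3′ ends of transcripts, so that V genes leave few UMIs and an absent V gene says little about a cell. A UMI of Ighv8-5 was found in 142 of the 552 cells (25.7%, 22.1–29.6), in 13 of the 57 cells with 1 UMI of Mcc (22.8%, 12.7–35.8) and in 10 of the 341 cells with none (2.93%, 1.42–5.33). Of 3602 kappa B cells without Mcc 1 had a UMI, and of 1507 T cells none, which allows a share of up to 0.199% (3 of 1507). With each cell thinned to 3000 UMIs, leaving out 1 and 24 shallower cells, the shares were 4.54% (2.96–6.63) and 0.631% (0.0765–2.26) in the Mcc-positive and the Mcc-negative lambda B cells. Of all 173 kept cells of I-LC32 with a UMI of Ighv8-5, 142 were Mcc-positive lambda B cells, 13 were lambda B cells with 1 UMI of Mcc, 10 were lambda B cells with none, 1 was a kappa B cell and 7 were other cells.

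The share of cells with a UMI of Ighv8-5 was 15.4% (7.63–26.5) at 2 UMIs of Mcc, 24% (13.1–38.2) at 3, 13.2% (5.48–25.3) at 4, 24.9% (18.8–31.8) at 5 to 9 and 33.5% (27.0–40.4) at 10 or more. Median depths were 12245, 12229, 11890, 12817 and 14458 UMIs. The intervals overlap between neighbouring levels, and all of these shares lay above that of lambda B cells without Mcc.

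**Figure D2:**
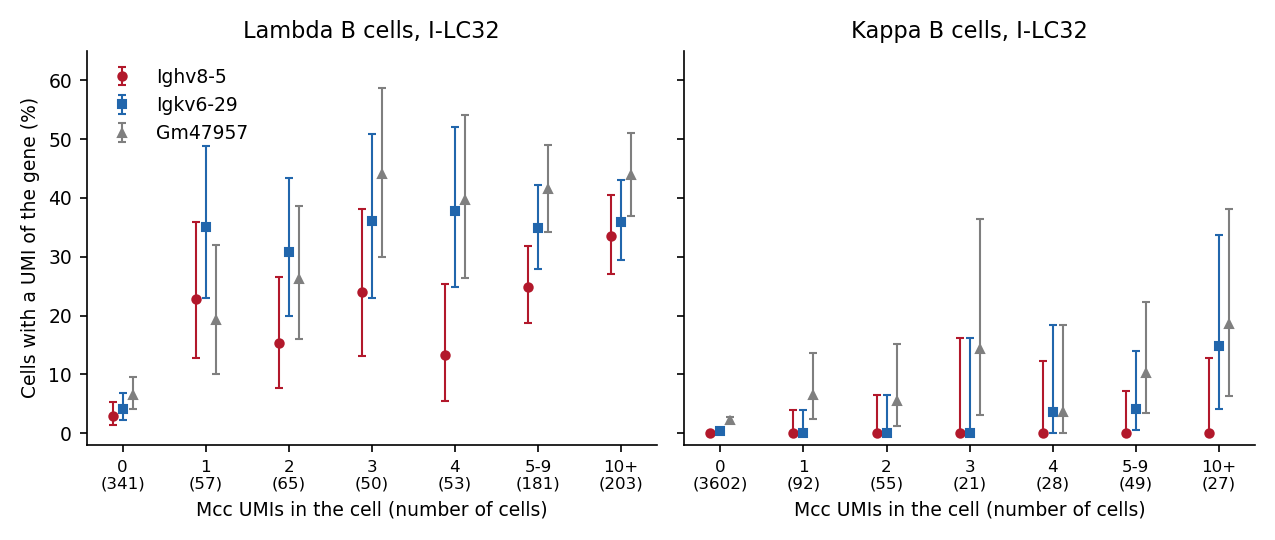
Share of cells (%) of I-LC32 with a UMI of Ighv8-5, Igkv6-29 or Gm47957 by the number of Mcc UMIs, for lambda and for kappa B cells, with 95% Clopper-Pearson intervals. In lambda B cells Ighv8-5 was in 2.93% of cells without Mcc and in 22.8% of cells with 1 UMI, and in kappa B cells with Mcc no UMI of Ighv8-5 was found.

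The lambda constant UMIs of these cells were mostly Iglc1, at 86.0%, and Iglc1 was the leading lambda gene in 532 of 552 cells (96.4%, 94.5–97.8), with a median of 148 UMIs. In the Mcc-negative lambda B cells Iglc1 was 70.1% of the lambda UMIs in I-LC32 and led in 51.3% of the cells. In the other libraries it was 42.6% (P-LC24), 40.0% (P-HC24) and 31.1% (I-HC32) of the lambda UMIs of Mcc-negative cells and led in 39.7%, 41.5% and 28.3% of them. The median of Iglc1 per Mcc-negative cell was 15 UMIs in I-LC32, against 11, 12 and 6 UMIs, a smaller gap than that of the summed UMIs. Iglv1, the V gene that joins to Iglc1, had 406 of 456 Iglv UMIs in the Mcc-positive cells. T cells held 17.0 CPM of lambda constant UMIs in I-LC32, 62.0% of them Iglc1, against 20.3% in P-LC24, 20.4% in P-HC24 and 22.1% in I-HC32. The low background of lambda UMIs in T cells thus also held more Iglc1 in this library.

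Kappa V genes were found in these lambda B cells as well. Of 1116 Igkv UMIs, Igkv6-29 had 445 (39.9%, 37.0–42.8), Igkv8-28 had 280 (25.1%, 22.6–27.7) and Igkv2-109 had 155 (13.9%, 11.9–16.1). Igkv2-109 was not particular to these cells. Of cells with 1 leading kappa V gene, it led in 11.7% (8.35–15.7) of the Mcc-positive and 19.4% (10.8–30.9) of the Mcc-negative lambda B cells. Igkv6-29 led in 38.8% and 14.9%. The genes on either side of the adjacent pair Igkv6-29 and Igkv8-28, which are Igkv8-30 and Igkv8-27, had 3 and 1 UMIs. A UMI of Igkv6-29 was found in 35.1% (31.2–39.3) of the Mcc-positive cells, in 35.1% (22.9–48.9) of the cells with 1 UMI of Mcc, in 4.11% (2.26–6.79) of those with none, in 0.305% of kappa B cells without Mcc and in none of 1507 T cells. At 3000 UMIs per cell it was found in 13.1% (10.4–16.2) of the Mcc-positive and 1.89% (0.698–4.07) of the Mcc-negative cells. Igkc was 1021 CPM in the Mcc-positive and 1207 CPM in the Mcc-negative lambda B cells, 46.1 CPM in T cells and 8684 CPM in kappa B cells. Its median was 1 UMI per Mcc-positive and 2 UMIs per Mcc-negative cell. Both V genes were found together in 57 cells, at least 1 of them in 50.5% (46.3–54.8) of the cells, and Ighv8-5, Igkv6-29 or Gm47957, a noncoding RNA gene on chromosome 9, in 70.3% (66.3–74.1).

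The light chain balance divided the cells. In 459 of the 552 cells (83.2%) at least 90% of the light chain constant UMIs were lambda, and there Ighv8-5 had 136 of 139 Ighv UMIs (97.8%, 93.8–99.6) at a median of 12517 UMIs per cell. The other 93 cells had a median of 74 UMIs of Igkc and of 22290 UMIs in all, and Ighv8-5 had 25 of their 53 Ighv UMIs (47.2%, 33.3–61.4). Depth moved with this difference and its part in it was not tested.

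The heavy chain class was IgM. Ighm held 97.9% of the heavy chain constant UMIs of the Mcc-positive cells, Ighd 1.48% and the switched classes IgG, IgA and IgE 0.595%, and in none of the 552 cells did switched UMIs exceed Ighm, which allows a share of up to 0.543% (3 of 552). The Mcc-negative lambda B cells had 93.7% Ighm and 5.65% Ighd. Ighd, a gene of follicular B cells, was 60.0 CPM in the former and 228 CPM in the latter.

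The genes of the Mcc-positive lambda B cells were compared within I-LC32, where diet and handling were shared, with 341 lambda B cells without Mcc. Genes were compared that had 100 UMIs or more over both groups and that 10% or more of either group carried. Of these 7856 genes, 191 (2.43%) were at least 2-fold higher and 147 (1.87%) at least 2-fold lower. The median log2 ratio was −0.08. Another comparator was 1452 kappa B cells without Mcc and with at least 3 UMIs of B-1 genes, called B-1-like here. It was added because the Mcc-negative cells include follicular-like cells, but it held follicular genes too. The follicular list summed to 3507 CPM in the kappa B-1-like and 3466 CPM in the Mcc-negative lambda B cells. The B-1 list summed to 1149 and 1004 CPM, so the 2 comparators were alike in both lists. Kappa B cells without Mcc, with no UMI of B-1 genes and with a UMI of Fcer2a, called follicular-like, are given for levels. Of 8300 genes, 255 (3.07%) were at least 2-fold higher than in kappa B-1-like cells and 161 (1.94%) at least 2-fold lower, and the median was the same. Both comparisons share the Mcc-positive cells.

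The highest ratios over the Mcc-negative cells belonged to genes with low levels in those cells. Gpm6a, a membrane glycoprotein of neurons, was highest, with 21.5 against 1.35 CPM (3.99, 2.61 to 5.88). It was followed by Xlr4c, of an X-linked lymphocyte-regulated family (3.55), Bmpr1a, a receptor for bone morphogenetic proteins (2.87), Ehf, an epithelial transcription factor (2.69), and Slc39a4, a zinc importer (2.67). Robo1, the receptor for Slit guidance proteins, had 180 against 31.4 CPM and a UMI in 63.6% against 9.09% of the cells. Tnfsf8, the ligand of CD30, had 222 against 41.9 CPM and was in 67.6% against 9.68% of the cells. Krt18, a keratin of simple epithelia, had 87.9 against 16.9 CPM and was in 62.9% against 9.68%. Nebl, an actin-binding protein (2.43), Krtcap3 (2.36), Gnb3, a G protein subunit (2.35), and Stxbp6, a syntaxin-binding protein (2.32), completed the 12 highest. Robo1, Tnfsf8 and Krt18 were each in less than 10% of the Mcc-negative cells. They passed the filter on cells only through the Mcc-positive cells, which were also deeper. Each of the 12 was also higher than in kappa B-1-like cells, with log2 ratios from 2.07 for Robo1 to 4.59 for Gpm6a. That comparison uses the same Mcc-positive cells.

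The lowest ratios included genes of naive and follicular B cells. Vpreb3, a partner of the B cell receptor chains during their assembly, had 5.86 against 60.8 CPM (−3.38, −3.86 to −2.91). Ccr7, which guides lymphocytes to lymph node T zones, had 44.6 against 223 CPM (−2.32, −2.51 to −2.14), and Fcer2a, the low-affinity IgE receptor CD23, had 13.3 against 65.9 CPM (−2.31, −2.66 to −1.97). The others were Chchd10, a mitochondrial protein (−2.47), Zfp608, a zinc finger protein (−2.43), Lgmn, a lysosomal protease (−2.43), Mgmt, a DNA repair enzyme (−2.43), Fgf13 (−2.42), Treml2 (−2.39), Plcxd2 (−2.29), Ssbp2 (−2.28) and Slc16a10, an amino acid transporter (−2.25). Each of the 12 was lower than in kappa B-1-like cells too, from −1.34 for Slc16a10 to −3.11 for Mgmt.

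**Figure D3:**
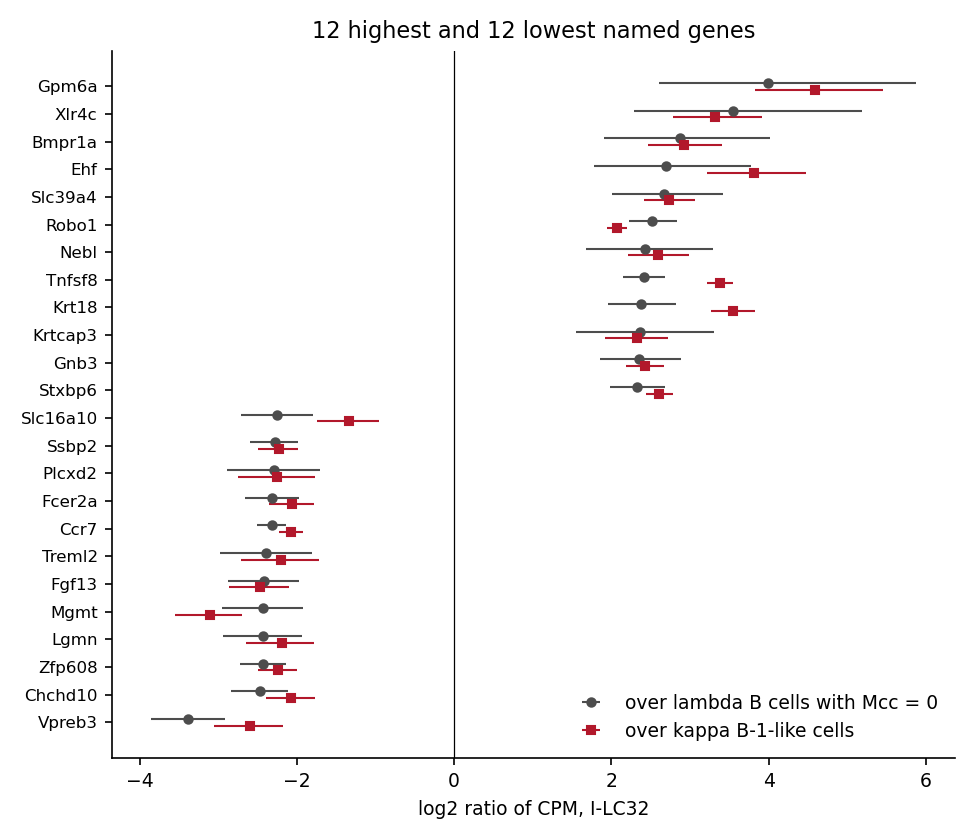
Log2 ratios of CPM of the 12 highest and 12 lowest genes in Mcc-positive lambda B cells of I-LC32, over lambda B cells without Mcc (circles) and over kappa B-1-like cells (squares), with exact 95% intervals as bars. All 12 highest genes lie to the right of 0 and all 12 lowest to the left in both comparisons, which share the Mcc-positive cells.

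The 12 highest genes were chosen by the ratio of the Mcc-positive to the Mcc-negative lambda B cells, so their values in these groups are a description. At least 4 of the 12 were detected in 70.8% (66.9–74.6) of the former and 5.57% of the latter. Among cells that had no part in the choice, the share was 71.9% (58.5–83.0) in the 57 lambda B cells with 1 UMI of Mcc, 1.17% in kappa B-1-like cells, 7.78% in kappa B cells with at least 2 UMIs of Mcc and 0.332% in T cells. Lambda B cells with 1 UMI of Mcc had 240 CPM of Tnfsf8, 172 CPM of Robo1 and 80.6 CPM of Krt18, close to the levels of the cells with more.

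All 10 genes of the B-1 list had log2 ratios above 0 over the Mcc-negative lambda B cells, 5 of them at least 2-fold, with a median of 0.92 against −0.08 for all genes compared. Of all genes compared, 2.43% were at least 2-fold higher. Cd5, an inhibitory receptor of B-1a cells, had 18.8 against 5.41 CPM (1.80, 1.05 to 2.64), Ctla4, another inhibitory receptor, 350 against 146 CPM (1.26, 1.11 to 1.41), and Il5ra, the receptor of a B-1 cell growth factor, 574 against 280 CPM (1.04, 0.93 to 1.14). Cd9, a tetraspanin, had 156 against 74.3 CPM (1.07, 0.86 to 1.28). At equal depth, Zbtb32, a transcriptional repressor, had a UMI in 30.1% against 9.46% of the cells, and Bhlhe41, a regulator of B-1 cells, in 25.4% against 12.9%. Over kappa B-1-like cells the median of the list was 0.76 with 2 genes at least 2-fold higher, but these cells had been chosen by genes of the list. The share over all genes compared there was 3.07%.

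Of all genes compared with Mcc-negative lambda B cells, 1.87% were at least 2-fold lower. Of the 10 follicular genes 6 were at least 2-fold lower and none was at least 2-fold higher, with a median of −1.47. Besides Ccr7 and Fcer2a, these included Satb1 (−2.03), Ighd (−1.93) and Cr2, the complement receptor CD21 (−1.75). Klf2, a regulator of lymphocyte migration, differed little (0.07, 0.03 to 0.12). Over kappa B-1-like cells, which held follicular genes at a like level, the median was −1.23 and 5 genes were at least 2-fold lower. The share over all genes compared there was 1.94%. Satb1 and Ighd, as well as the genes given at equal depth, were named after their values had been seen.

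The cells had the genes of B cells, with 16134 CPM summed over the B cell list against 14404 CPM in the Mcc-negative cells and a log2 ratio of 0.42 for Ms4a1, which encodes CD20. Other B cell programmes were mixed. The marginal zone list had a median of 0.04, with Cd9 higher (1.07) and Cr2 lower, and the memory list 0.08, with Cd80, a costimulatory ligand, higher (1.03) and Ccr6, a chemokine receptor, lower (−1.05). Of the plasma cell list, Prdm1, a master regulator of plasma cells, was higher (1.23) and Slamf7 lower (−1.48), with a median of −0.34. Of the germinal centre list 2 of 9 genes could be compared, Bcl6 (−0.002) and Mef2b (0.12), and of the cell cycle list 4 of 20, with a median of −0.12. Mki67, a marker of cycling cells, was found in 3.44% of the Mcc-positive and 1.17% of the Mcc-negative lambda B cells. At equal depth it was found in 0.726% (0.198–1.85) and 0% (0–1.16, here the Clopper-Pearson interval and not the limit of 3 counts).

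Of 28 genes of B cell receptor signalling none was at least 2-fold higher and 4 were lower, Vav3, a guanine exchange factor (−2.20), Cr2, the kinase Fyn (−1.75) and Rasgrp3 (−1.39), while the median was −0.01. For this and the next lists, the shares over all genes compared were 2.43% at least 2-fold higher and 1.87% lower. The core components lay near 0, among them Cd79a (−0.06), Syk (0.05) and Bank1 (−0.01). Of 12 inhibitory receptor genes compared, Cd5 and Ctla4 were higher and Cd72, a binder of semaphorin 4D, was lower (−2.10). In trafficking genes 5 of 16 were at least 2-fold lower and none higher, with Ccr7 and Cnr2, the cannabinoid receptor of leukocytes (−1.28), at the largest distance. The median was 0.17 for MHC class II genes, 0.07 for survival genes and −0.03 for genes of the Wnt pathway, in which Mcc has been placed. In these lists 10 of 10, 19 of 21 and 11 of 25 genes could be compared, and none of those was past 2-fold. The other Wnt genes did not pass the filters. Over kappa B-1-like cells 1 of 13 Wnt genes compared was at least 2-fold lower, Fzd6 (−3.43, −4.32 to −2.66), and none was higher. Fyn, Rasgrp3, Syk and Fzd6 were named after their values had been seen.

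Markers of other cell types differed between the groups. The T cell list summed to 22.5 CPM in the Mcc-positive and 28.4 CPM in the Mcc-negative lambda B cells, against 4536 CPM in T cells, and the NK list to 16.1 and 6.08 CPM. The macrophage list was 180 and 495 CPM, of which Lyz2, a lysozyme, made 132 and 470 CPM, and the neutrophil list 1.79 and 314 CPM, with 15 and 929 UMIs. The erythroid list was 16272 and 11643 CPM, and 16411 CPM in kappa B-1-like cells. Of the plasma cell genes, Jchain, the joining chain of secreted IgM, had 1207 UMIs in 0.880% of the Mcc-negative cells and 17 UMIs in the Mcc-positive cells. The part of these cells in the ratios was not tested.

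Genes of chromosome 15 had a higher median ratio in the Mcc-positive lambda B cells than those of each other autosome and of X. Their median log2 ratio over Mcc-negative lambda B cells was 0.25 (332 genes, 78.6% above 0), whereas the medians of the other chromosomes lay between −0.14 and −0.04. Over kappa B-1-like cells it was 0.38 (350 genes), and 90.9% of the genes lay above the median of the other chromosomes. The difference from the other chromosomes was 0.34 (1.27-fold) and 0.47 (1.38-fold). At least 2-fold higher were 20 of the 332 genes and 32 of the 350, against 2.43% and 3.07% of all genes compared. Kappa B cells with at least 2 UMIs of Mcc had a difference of 0.04 over kappa B cells without Mcc.

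**Figure D4:**
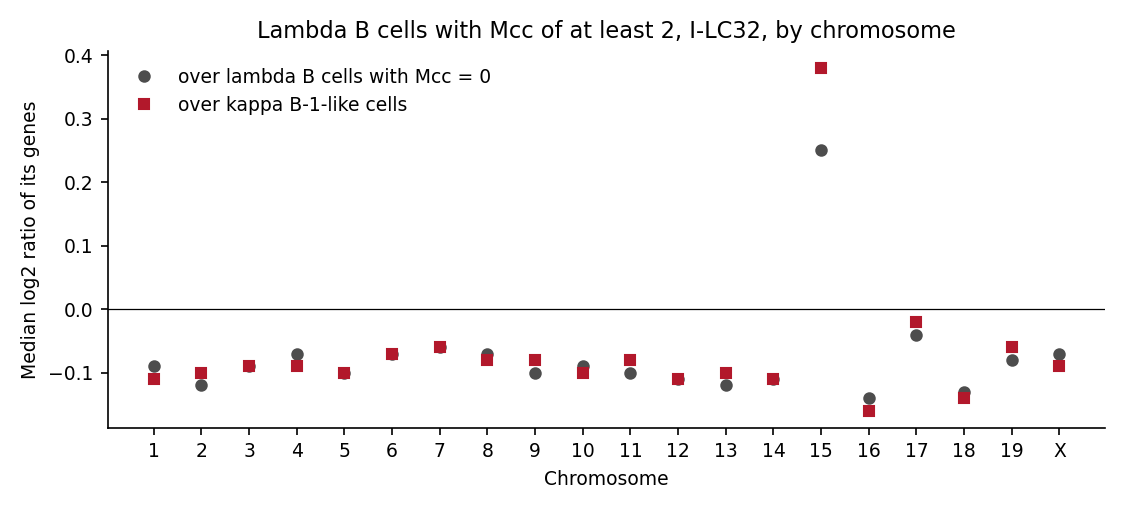
Median log2 ratio of the genes of each chromosome in Mcc-positive lambda B cells of I-LC32 over lambda B cells without Mcc and over kappa B-1-like cells. Chromosome 15 lies at 0.25 and 0.38 and all others at or below −0.02.

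The higher level ran along most of the chromosome. In windows of 15 Mb the difference over kappa B-1-like cells was 0.19 in the first and 0.41 to 0.51 from 30 Mb to the end. The window from 15 to 30 Mb, with 7 genes, had −0.45. It was of like size at all levels, with 0.46, 0.46 and 0.47 in genes of low, middle and high level, split into equal parts. Among the genes with the most UMIs, Rpl30, Rpl8 and Rpl3, of the large ribosomal subunit, had 0.40, 0.50 and 0.14 over kappa B-1-like cells. Ly6d, a surface protein of lymphoid cells, had 2357 against 1113 CPM (1.08, 1.05 to 1.11), Ly6e 0.65, Rac2, a small GTPase of blood cells, 0.77, and Lgals1, a galectin, 0.79. Over Mcc-negative lambda B cells Ly6d had 0.57, Ly6e 0.43, Rac2 0.72 and Lgals1 1.02. Myc, a growth regulator on the same chromosome, had 68.7 against 54.8 CPM in kappa B-1-like cells (0.33, 0.17 to 0.48). Slc39a4 and Krt18 of the 12 highest genes also lie there.

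The same was seen in single cells. Of a cell's UMIs, with immunoglobulin, mitochondrial and haemoglobin genes left out, chromosome 15 held a median of 5.90% in the 552 Mcc-positive cells, with quartiles of 5.55% and 6.22%. It held 6.05% in lambda B cells with 1 UMI of Mcc, 4.26% in those with none, 4.16% in kappa B-1-like cells, 4.19% in kappa B cells with at least 2 UMIs of Mcc, 4.14% in follicular-like kappa B cells and 4.39% in T cells. Of the Mcc-positive cells, 522 (94.6%, 92.3–96.3) lay above the 90th percentile of kappa B-1-like cells. The median was 5.94% in the 279 cells with a UMI of Ighv8-5 or Igkv6-29 and 5.87% in the 273 without. Among lambda B cells without Mcc, it was 5.83% in the 23 with a UMI of either V gene and 4.23% in the 318 without. For the other chromosomes, the median share of the Mcc-positive cells was between 0.917 and 1.06 times that of kappa B-1-like cells, and for chromosome 15 it was 1.42 times.

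**Figure D5:**
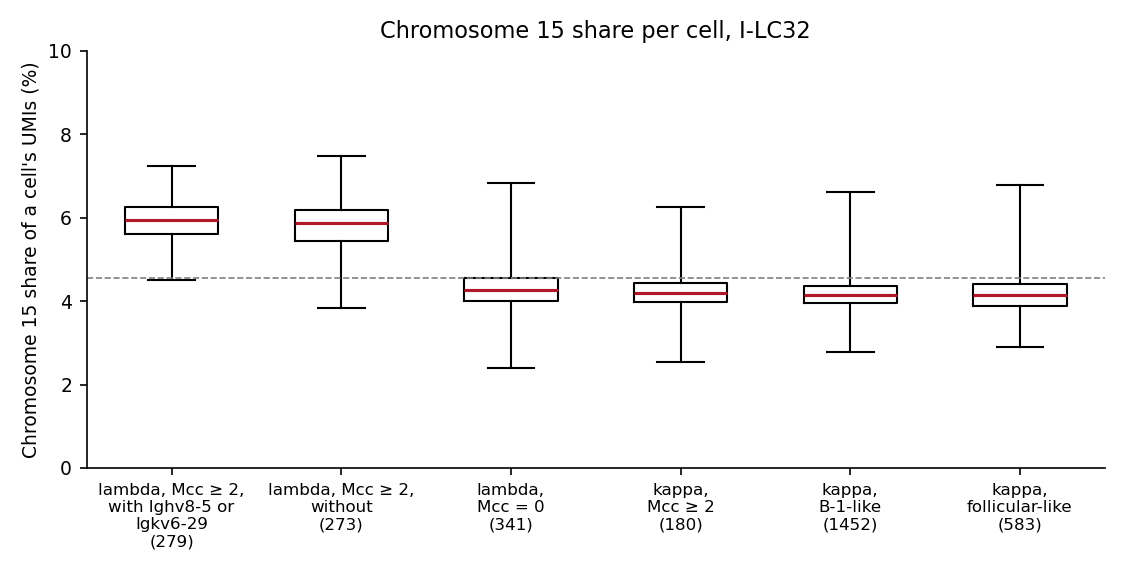
Chromosome 15 share (%) of the UMIs of single cells of I-LC32, by class of B cell with the number of cells below. Boxes give the quartiles, red lines the medians, whiskers the lowest and highest cell, and the dashed line is the 90th percentile of kappa B-1-like cells, 4.56%. The medians of both Mcc-positive lambda groups were 5.94% and 5.87%, and those of the other classes 4.14% to 4.26%.

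Placed by their other genes, the cells lay together. Without immunoglobulin genes and Mcc, 73.5% of the 30 nearest neighbours of an Mcc-positive lambda B cell among the B cells of I-LC32 were such cells, which made up 11.3% of these B cells. For lambda B cells with 1 UMI of Mcc the share was 71.5%, for those with none 67.3% where a UMI of Ighv8-5 or Igkv6-29 was present and 6.98% where neither was. It was 13.4% for kappa B cells with at least 2 UMIs of Mcc, 3.97% for kappa B-1-like cells and 0.0172% for follicular-like kappa B cells. The majority of the neighbours were Mcc-positive lambda B cells in 458 of the 552 cells (83.0%).

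Mcc was not particular to lambda B cells. At least 2 UMIs were found in 180 kappa B cells of I-LC32, 229 of I-HC32, 169 of P-HC24 and 47 of P-LC24, and none of these cells had a UMI of Ighv8-5. In I-LC32, these kappa B cells had a median of 13966 UMIs, and Igkv6-29 was found in 3.89% (1.58–7.85) of them. Of 8470 genes compared with kappa B cells without Mcc, 121 (1.43%) were at least 2-fold higher and 82 (0.968%) at least 2-fold lower. Robo1 was 1.25 higher on the log2 scale, Krt18 1.93, Gnb3 1.43 and Slc39a4 1.20, while Gpm6a (0.89, −1.54 to 2.71) and Xlr4c (0.12, −1.39 to 1.34) had intervals that included 0. The B-1 list had a median of 0.74 and the follicular list −1.16 in this comparison.

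The other libraries held 42 Mcc-positive lambda B cells. In P-LC24, the same mice at week 24, 2 of 7 cells had Ighv8-5, Iglc1 led in 7 of 7 (59.0–100%) and 3 of 7 had at least 4 of the 12 highest genes (42.9%, 9.90–81.6). The first had 7 UMIs of Mcc, 3 of Ighv8-5, 230 of Iglc1 and 3 of Igkc, and 4 of the 12 highest genes, with 18 UMIs of Robo1 and 13 of Tnfsf8. The second had 11 UMIs of Mcc, 1 of Ighv8-5, 2 of Igkv6-29, 114 of Iglc1 and none of Igkc, and also 4 of the 12 genes. Their chromosome 15 shares were 6.14% and 5.90%, above the 90th percentile of kappa B-1-like cells of that library, 4.59% (the median was 4.15%). A further cell without a V gene UMI had 2 UMIs of Mcc, 75 of Iglc1, 5 of the 12 genes and a share of 5.85%, and the remaining 4 had shares of 3.77%, 5.03%, 3.82% and 4.15%. A lambda B cell of P-LC24 without Mcc had a UMI of Ighv8-5, 135 UMIs of Iglc1 and a share of 6.29%. In P-LC24, 3 lambda B cells thus had a UMI of Ighv8-5, at least 114 UMIs of Iglc1 and a chromosome 15 share at or above the median of the Mcc-positive cells of I-LC32, too few to compare shares. The other 3 of the 6 cells of P-LC24 with Ighv8-5 were kappa B cells without Mcc. They had 0 to 4 UMIs of Iglc1 and shares from 3.86% to 4.37%.

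In P-HC24 1 of 21 cells had Ighv8-5, with 13 UMIs of Mcc and 3 of Ighv8-5, but it had 1 of the 12 genes and a chromosome 15 share of 3.85%. A cell with 15 UMIs of Mcc and no Ighv8-5 had a share of 6.02% and 2 of the 12 genes. None of the 21 cells had 4 of the 12 genes, and Iglc1 led in 8 of them (38.1%, 18.1–61.6). In I-HC32 no cell of 14 had Ighv8-5 or Igkv6-29, which allows a share of up to 21.4% (3 of 14). There 1 cell had a share of 6.02% with 4 of the 12 genes, and Iglc1 led in 4 of the 14 (28.6%, 8.39–58.1). Over all such cells of a library, the median chromosome 15 share was 4.38% in P-HC24, 4.18% in I-HC32 and 5.03% in P-LC24. Ighv8-5 was also found in 4 kappa B cells of P-HC24 and in 8 other cells of I-HC32. These 8 were 6 kappa B cells and 2 lambda B cells without Mcc, the latter with shares of 4.64% and 4.70%.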

How the data were processed

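Single-cell RNA-seq libraries (Chromium 3′ v3.1) of non-parenchymal liver cells were analysed, 1 library for each of 4 conditions. The authors deposited whole-number UMI counts per gene and barcode, made with Cell Ranger 9.0.1 on GRCm39 per the submitters' processing notes, which also list Seurat 5.3. The study corrected free RNA with SoupX, and the counts used here were not corrected. Total UMIs per library ran from 50941106 to 89257239, over 33198 barcodes and 33696 genes, and limit the precision of each share. Gene positions came from GENCODE vM39 on GRCm39, which matched 33185 genes (98.5%).

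Groups followed the labels. Cells and gene lists were chosen with earlier results of these data known. UMIs were summed over the cells of a class and given as CPM, and ratios were formed within I-LC32, since single cells of 1 library are no replicates and no test was made. Genes with fewer than 100 UMIs over both groups, or found in fewer than 10% of cells in each, were left out, and a 2-fold ratio was counted. Named genes were the 12 highest and 12 lowest ratios over Mcc-negative lambda B cells, without immunoglobulin, T cell receptor, haemoglobin, mitochondrial and ribosomal genes or unnamed gene models, 5 marker genes, of each list the 2 with the highest level and the 2 with the largest ratio, and the 3 V genes with the most UMIs. Genes outside this rule, those of chromosome 15 and around Mcc among them, were named after their values had been seen. Nearest neighbours were found over 20 principal components of 2000 variable genes. Some list members are not reported here. Doublets were kept, and as an alternative the cells with the highest Scrublet scores were left out, their number set from the count of cells. Other alternatives were the Mcc minimum, mitochondrial limit, light chain balance, thinning, filters, weighting and fold.

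Poisson counts were simulated for the Mcc-positive and Mcc-negative lambda B cells, over the 7961 genes with at least 100 UMIs in both together. There 96.0% of intervals held the true ratio, and 100% of genes raised 3-fold, 98% of genes lowered 3-fold and 4% of genes raised 1.5-fold were counted. The intervals assume such counts, so how they behave for genes whose UMIs gather in few cells was not tested. The scripts ran in Python 3.11.15 with scanpy 1.11.5, scikit-learn 1.9.0, scipy 1.17.1, numpy 2.4.6, pandas 2.3.3, biopython 1.88 and matplotlib 3.10.9.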

Additional observations from a re-analysis of the deposited data

Results flagged for a closer look

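Ighv8-5 was also found among barcodes that the rule left out. In I-LC32, 41 barcodes had more lambda than kappa UMIs, at least 2 UMIs of Mcc and a UMI of Cd3e or Cd3d. Of these, 6 had a UMI of Ighv8-5 (14.6%, 5.57–29.2) and 15 a UMI of Igkv6-29 (36.6%). They had a median of 18257 UMIs and a median chromosome 15 share of 5.36%. Of 1507 T cells none had a UMI of Ighv8-5 (up to 0.199% at 3 counts), at a median of 6880 UMIs and a chromosome 15 share of 4.39%. The same kind of barcode numbered 1 in P-LC24, 3 in P-HC24 and 2 in I-HC32, none of them with Ighv8-5. What these barcodes hold was not tested.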

How the results depend on the processing

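No paired analysis was possible because each group has 1 library, and for the same reason no library could be left out. With a minimum of 1, 3 or 5 UMIs of Mcc, the share of lambda B cells of I-LC32 was 64.1%, 51.3% or 40.4% (58.1% at 2 UMIs). A mitochondrial limit of 5% left 137 of the 552 cells, a share of 49.6%, Ighv8-5 in 30.7% of cells and a B-1 median of 1.36 (0.92 at 10%), and Iglc1 turned from 0.47 to a ratio below 0. With at least 90% lambda, the share was 65.3% and Ighv8-5 had 97.8% of the Ighv UMIs. Thinning to 3000 UMIs and applying the rule to the thinned counts left 273 cells, a share of 28.6%, Ighv8-5 in 8.06% of cells and in 92.3% of the Ighv UMIs. The shares at equal depth above instead kept the classes set at full depth, with 551 Mcc-positive and 317 Mcc-negative cells. With those classes, thinning gave 116 higher genes and a B-1 median of 1.22, with 3615 genes to compare. Means of the cells' own CPM gave 311 higher and 263 lower genes and a B-1 median of 1.29. At least 20 UMIs and no filter on cells gave 555 and 610 genes, and a fold of 1.5 gave 481 and 562. Without cells that held either V gene, the Mcc-negative cells gave a B-1 median of 1.08. Lck, with −0.11, turned above 0 with at least 5 UMIs of Mcc, with the cells' own CPM and without those V gene cells. Of the 191 higher genes, 165 were also higher with at least 5 UMIs of Mcc, 173 without the barcodes of highest Scrublet score and 183 without those V gene cells. But only 70 were at the 5% mitochondrial limit (4290 genes compared) and 59 after thinning.

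Chosen after seeing the data were the alternatives for chromosome 15 and shared barcodes. The chromosome 15 difference of 0.47 ran from 0.34 to 0.53 under 5 alternatives. The share of cells above the 90th percentile was 92.0% after thinning and 96.4% with at least 5 UMIs of Mcc. The nearest-neighbour share was 72.8% with 10 components in place of 20. Depth limits the V genes, with 192 Ighv UMIs in 552 cells. The causes of these changes were not tested, beyond fewer cells or genes.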

Other observations

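The noncoding gene Gm47957 and Pou2af2, both on chromosome 9, were also higher in the Mcc-positive lambda B cells of I-LC32. Gm47957 had 59.3 against 19.6 CPM in Mcc-negative lambda B cells and was found in 40.6% (36.4–44.8) of the cells, in 19.3% of lambda B cells with 1 UMI of Mcc, in 5.30% of kappa B-1-like cells and in 0.265% of T cells. Pou2af2, a coactivator of POU transcription factors in the same region but with other genes between, had 257 against 102 CPM. It was in 79.7% against 19.7% of the cells. Other coding genes of the region were mixed, with Fdx1 higher (0.59) and Rdx (−0.35), Ddx10 (−0.59) and Zc3h12c (−0.90) lower. The 440 cells of I-LC32 with the highest Scrublet scores (5.93%), a number set beforehand from the count of cells, were left out as possible doublets. They included 49 of the Mcc-positive lambda B cells (8.88%) and 19 of the Mcc-negative ones.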
